A study of Mus musculus with 6 samples.

Results

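Nuclear genes for the subunits of the mitochondrial respiratory chain were compared between Blimp1/GFP+ and Blimp1/GFP- regulatory T cells (Treg). Members were all genes whose symbol begins with Nduf followed by a, b, c, s or v and a digit, is Sdha to Sdhd, or begins with Uqcr, Cox4a to Cox8c or Atp5a to Atp5o. This rule took 81 of 26286 genes in the count tables: 37 named for complex I, 4 for complex II, 8 for complex III, 16 for complex IV and 16 for complex V. The symbol rule did not match Ndufab1, Cyc1, Cox4i1 and Cox4i2, and the subunits encoded by the mitochondrial genome were not analysed here. One member, Atp5c1-ps, is a pseudogene copy of Atp5c1, and its counts equalled 7.89% to 7.999% of those of Atp5c1 in the poly(A) libraries and 10.6% to 10.7% in the others, so the values of the pair are uncertain. Whether reads of one were assigned to the other was not tested.

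The respiratory chain is a series of protein complexes in the inner mitochondrial membrane. Complex I accepts electrons from NADH and complex II from succinate, ubiquinone carries them to complex III, cytochrome c carries them on to complex IV, and complex IV passes them to oxygen. Complexes I, III and IV pump protons, and complex V, the ATP synthase, uses the returning protons to make ATP. Treg are known to rely on mitochondrial respiration more than effector T cells do. Blimp1, encoded by Prdm1, is a transcriptional repressor that marks effector Treg.

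All cells were CD4+ CD25high cells of C57BL/6 mice with a Blimp1/GFP reporter, sorted from spleens and lymph nodes that had been pooled, and the library titles carry the prefix BlimpHet. GFP+ cells had the reporter signal and GFP- cells lacked it, and the age of the mice is not in the labels. Each population had 3 libraries, stated to be biologically independent: 1 from a standard poly(A) protocol (GFP- replicate 20, GFP+ replicate 19) and 2 from a protocol for single-cell amounts of RNA applied here to sorted populations (the GFP- libraries 2 and 5 and the GFP+ libraries 1 and 4, numbered as in their titles). In bulk samples such as these, fewer cells of a type and less RNA per cell cannot be told apart.

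The libraries held 15224051 to 28354321 counts. Prdm1 ranged from 2.46 to 9.13 CPM over the GFP- libraries and from 29.5 to 152 over the GFP+ libraries, which matches the sort. Here and below, CPM are library-normalised counts after TMM scaling of library sizes, unless they are said to be of all counts. Foxp3, the factor that defines Treg, had a log2 fold change of 0.21 ± 0.31 (SE) between the populations, with an adjusted p of 0.710 (edgeR, Benjamini-Hochberg). Of 7 tested Treg markers, 1 was called higher in GFP+ cells, Ctla4 (2.09 ± 0.32, adjusted p 0.00305, edgeR), and 0 lower. Il2ra was at -0.64 ± 0.23 and Ikzf2 at 0.60 ± 0.23, both without a call (adjusted p 0.111 and 0.126, edgeR). The GFP+ libraries also held macrophage transcripts: the summed level of the 14 macrophage markers was 15.4 to 29.0 CPM in the GFP- libraries and 896 to 1760 CPM in the GFP+ libraries, 10 of 10 tested markers were called higher, and Clec4f was at 0 throughout. Summed erythroid markers were 32.8 to 591 CPM in GFP- and 94.1 to 1803 CPM in GFP+ libraries, with 2 of 3 tested markers called higher. Markers of CD8 T cells and natural killer cells gave 1 lower call each, Cd8a (-0.99 ± 0.23, adjusted p 0.0220, edgeR) and Ncr1 (-1.92 ± 0.45, adjusted p 0.0219, edgeR), of 2 tested in each list. The part of these cells in any value below was not tested.

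Of the 81 members, 64 passed the filter on low counts and were tested among 10523 genes. Another 10 (Ndufb5, Ndufc1, Ndufb7, Ndufa13, Sdhd, Uqcrc1, Cox5a, Cox7a2, Atp5f1 and Atp5l) lie on chromosomes 3, 8 and 9. Of the 3507 genes there, 2 had any count in the single-cell protocol table, so these 10 were described in the poly(A) pair only. Cox8b, Cox8c and Cox7b2, forms of complex IV subunits known from muscle and testis, were at 0 in every library. Ndufa4l2, Uqcr11, Cox6a2 and Cox8a had counts that were too low to test. In the GFP- and GFP+ poly(A) libraries Cox8a had 0 and 2 counts and Uqcr11 0 and 0. Whether such counts reflect scarce transcripts or reads that were not assigned to these genes was not tested.

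No respiratory chain subunit was called different between the populations. With edgeR's quasi-likelihood test and Benjamini-Hochberg adjustment over all 10523 genes, 0 of 64 members were higher and 0 were lower in GFP+ cells, against a background of 13.5% of tested genes called (9.81% higher and 3.68% lower). At an unadjusted p under 0.05 there was 1 member (against 26.9% of all tested genes), Cox7a2l, which was also the single member called lower by DESeq2, limma-voom and limma-trend. The log2 fold changes of the members ran from -1.18 to 0.58, with 31 above 0 and 33 below, a median of -0.03 and a median SE of 0.34. The median over all tested genes was -0.08 and their median SE was 0.29. In 60 of the 64 members (93.75%) the fitted change was under 0.5 in size, against 60.3% of all tested genes. The 95% interval lay within 1 log2 unit of 0 on both sides for 34 of the 64, against 4549 of all 10523 tested genes. For the other 30 members a change of 2-fold was thus not excluded at this number of libraries.

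**Figure D1:**
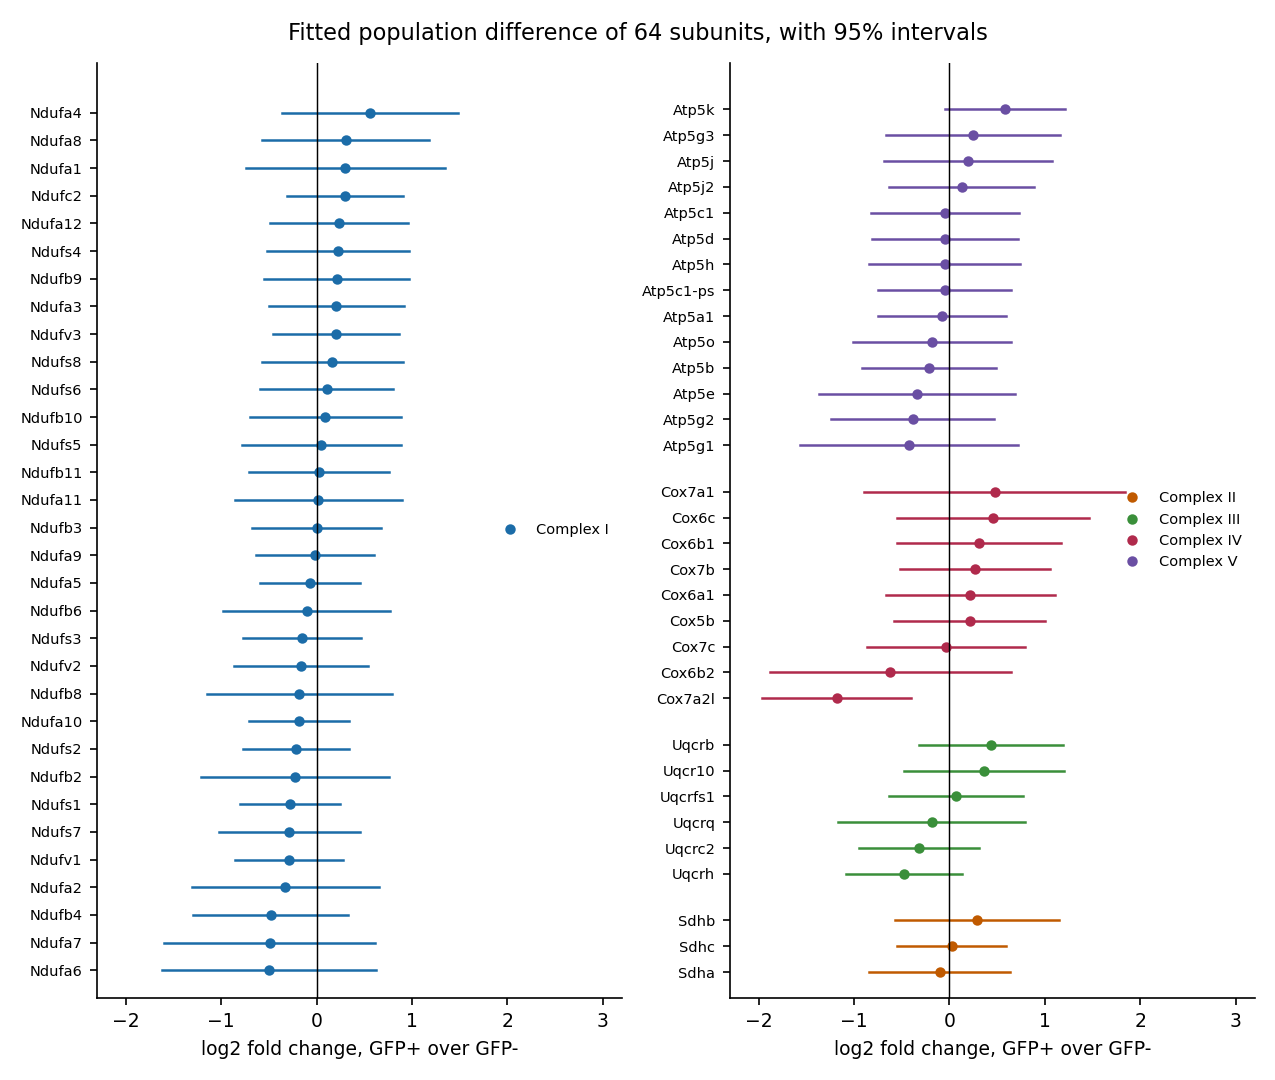
Fitted log2 fold change (GFP+ over GFP-, horizontal axis) of the 64 tested subunits, each point with its 95% interval from the fit over all 6 libraries, coloured by complex. The intervals cross 0 for all members shown except Cox7a2l at -1.18.

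A second description, with no test, asked whether the GFP+ libraries lay outside the GFP- libraries in the same direction within both protocols. This was so for 4 of 64 members (6.25%), of which Ndufa4 was higher and Uqcrh, Cox7a2l and Atp5b were lower in GFP+ cells, while the share among all tested genes was 40.6% (21.3% higher and 19.3% lower). Cox7a1 and Atp5k were separated in opposite directions in the 2 protocols, and 58 members overlapped in the single-cell protocol or were tied there. The scaling matters for this count. On CPM of all counts, without TMM factors, 11 members were separated as higher, 1 (Cox7a2l) as lower and 11 in opposite directions, and Uqcrh and Atp5b overlapped. Of all tested genes, 23.6% were separated as higher, 8.88% as lower and 2.58% in opposite directions on that scale.

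Complex I had a median log2 fold change of -0.01 over 32 tested subunits, 16 above and 16 below 0. Its 7 tested core subunits, which hold the flavin and the iron-sulphur clusters or the quinone site, were at -0.29 to 0.16 (6 of 7 below 0, median -0.21), and the 24 accessory subunits, which surround the core, at -0.50 to 0.31 (10 of 24 below 0, median 0.02), leaving out Ndufa4. This grouping by textbook role was made after the values were seen. The 3 complex I members with the smallest p were Ndufa4, Ndufb4 and Ndufs1.

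Ndufa4, named for complex I and since assigned to complex IV, had 25.1 CPM in the GFP- and 25.4 in the GFP+ poly(A) library, 69.8 and 208 in GFP- replicates 2 and 5, and 217 and 276 in GFP+ replicates 1 and 4. The GFP+ libraries were above the GFP- libraries of their protocol, but the poly(A) pair was nearly level and GFP- replicate 5 lay closer to the GFP+ libraries than to GFP- replicate 2. Its log2 fold change was 0.56 ± 0.40 (SE), with an adjusted p of 0.425 (edgeR, Benjamini-Hochberg). Ndufb4, an accessory subunit of the membrane arm, had 3.65 CPM against 3.09 in the poly(A) pair and 13.0 and 31.4 in GFP- against 11.1 and 17.98 in GFP+ libraries of the single-cell protocol. These ranges overlapped, and the log2 fold change was -0.48 ± 0.36 (adjusted p 0.442, edgeR). Ndufs1, the largest iron-sulphur subunit of the core, was at 28.6 against 22.1 CPM in the poly(A) pair and at 74.1 and 49.5 in GFP- against 55.0 and 50.6 in GFP+ libraries. Its log2 fold change was -0.28 ± 0.23 (adjusted p 0.489, edgeR). Ndufb3, another accessory subunit, had the p nearest 1 in complex I (log2 fold change 0.00 ± 0.30).

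Complex II is also an enzyme of the citrate cycle, and 3 of its 4 subunits could be tested. Sdhb, the iron-sulphur subunit, had 65.1 CPM in GFP- and 65.8 in GFP+ poly(A) libraries, 177 and 496 in GFP- replicates 2 and 5, and 485 and 421 in GFP+ replicates 1 and 4. The distance between the GFP- replicates exceeded that between the populations, and the log2 fold change was 0.29 ± 0.38 (adjusted p 0.674, edgeR). Sdha, the flavoprotein that oxidises succinate, was at -0.10 ± 0.32, and Sdhc, a membrane anchor, at 0.03 ± 0.25.

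Complex III had 6 tested subunits with a median of -0.06, 3 above and 3 below 0. Uqcrh, the hinge protein that assists the docking of cytochrome c, had 41.5 CPM in the GFP- and 27.5 in the GFP+ poly(A) library, 635 and 657 in GFP- replicates 2 and 5, and 580 and 386 in GFP+ replicates 1 and 4. Every GFP+ library was below the GFP- libraries of its protocol on this scale. The log2 fold change was -0.48 ± 0.27, with a 95% interval of -1.09 to 0.13 and an adjusted p of 0.299 (edgeR, Benjamini-Hochberg). Uqcrb, a small subunit that binds ubiquinone, went the other way at 0.44 ± 0.33, with 5.74 against 4.94 CPM in the poly(A) pair and 27.8 and 40.3 against 74.9 and 39.2 CPM in the single-cell protocol, so its populations overlapped. Uqcrc2, a core protein of the matrix side, was at -0.32 ± 0.28, and Uqcrfs1, the Rieske iron-sulphur protein, at 0.07 ± 0.31.

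Complex IV held the largest fitted difference of the 64 tested members. Cox7a2l encodes SCAF1, a relative of the Cox7a subunits known to tether complex III to complex IV in supercomplexes, and C57BL/6 mice are known to carry a short form of the protein. Its level was 114 CPM in the GFP- and 56.2 in the GFP+ poly(A) library, 2166 and 4102 in GFP- replicates 2 and 5, and 1247 and 1365 in GFP+ replicates 1 and 4. All 3 GFP+ libraries were below every GFP- library of their protocol, and they stayed below on CPM of all counts. The log2 fold change was -1.18 ± 0.34 (95% interval -1.96 to -0.40), with an unadjusted p of 0.0078 and an adjusted p of 0.0556 (edgeR, Benjamini-Hochberg), which is above the threshold of 0.05.

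The Cox7a2l estimate was below 0 under all 16 alternative settings and passed the threshold under 7 of them. These were DESeq2 (-1.24, adjusted p 0.00280), limma-voom (-1.14, 0.0344), limma-trend on the deposited log2 RPKM (-1.12, 0.0277), edgeR with no filter (-1.18, 0.0127), with library totals alone (-1.02, 0.00899), with a block of adjacent title numbers (-1.13, 0.0196) and without GFP- replicate 2 (-1.41, 0.00471). Over the other 9 settings the adjusted p ran from 0.0695 to 1.00, and leaving out GFP- replicate 5 gave the smallest difference (-0.86, adjusted p 0.0832, edgeR). The difference did not pass a test of change between protocols (interaction -0.24 ± 0.99, p 0.812, edgeR). With 2 residual degrees of freedom that test called 0 of 10523 genes, so it cannot show that the protocols agree. No exonic base of Cox7a2l overlaps another protein-coding gene in GENCODE vM21.

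**Figure D2:**
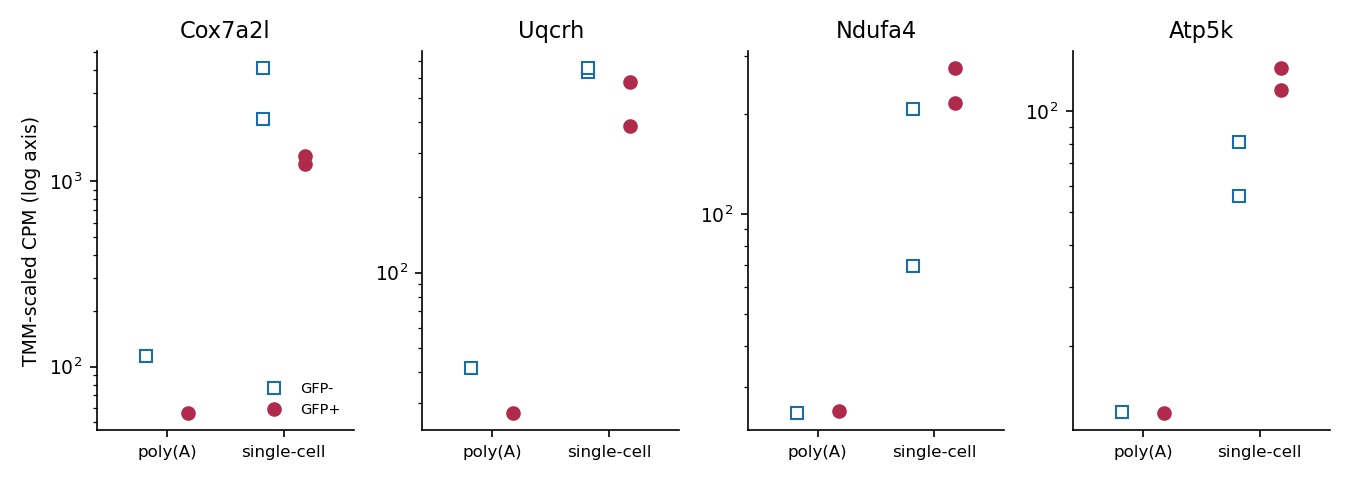
TMM-scaled CPM (logarithmic axis, own range per panel) of Cox7a2l, Uqcrh, Ndufa4 and Atp5k in each library, by protocol, with open squares for GFP- and filled circles for GFP+ libraries. Cox7a2l is lower in GFP+ in both protocols, 114 against 56.2 CPM in the poly(A) pair, while the poly(A) points of Ndufa4 (25.1 and 25.4) and Atp5k (12.7 and 12.6) nearly coincide.

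The other 8 tested complex IV members had log2 fold changes of -0.62 to 0.48, and the complex as a whole had 6 above and 3 below 0 with a median of 0.22. Cox6b2, the testis form of a subunit on the intermembrane side, was scarce, with 0.163 to 1.52 CPM over the libraries (-0.62 ± 0.55). Cox6b1, its form in most tissues, had 46.8 against 48.7 CPM in the poly(A) pair and 790 and 657 against 1417 and 543 in the single-cell protocol, with overlapping populations (0.31 ± 0.38). Cox6c, a small accessory subunit, was at 14.8 against 18.4 CPM in the poly(A) pair and at 55.5 and 214 against 160 and 228 in the single-cell protocol (0.46 ± 0.44, adjusted p 0.556, edgeR). Cox7c had the p nearest 1 in this complex (-0.04 ± 0.36). Cox7a1, the heart and muscle form of a subunit related to Cox7a2l, had 0.127 to 0.900 CPM in all libraries.

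The muscle form Cox6a2, which was not tested, had 3 counts in the GFP- and 41 in the GFP+ poly(A) library and 0 to 2 in the others. The poly(A) ratio was 13.1, with an exact 95% interval of 4.19 to 66.2 for counting error only. In GENCODE vM21, 70 of its 680 exonic bases (10.3%) overlap exons of Itgad, an integrin gene whose counts were 50 and 3477 in the same poly(A) libraries, 4 and 4 in GFP- replicates 2 and 5, and 492 and 620 in GFP+ replicates 1 and 4. Whether counting used strand is not given in the sources used here, so reads of the pair cannot be told apart. Skeletal muscle actin, Acta1, had 12321 and 13019 counts in the poly(A) pair. It lies on chromosome 8, where no gene had counts in the single-cell protocol table. The other muscle markers were scarce in the GFP- and GFP+ poly(A) libraries: Myh4 had 28 and 18 counts, Tnnt3 16 and 14, Ckm 2 and 8, and Myl1 1 and 1.

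Complex V had 14 tested members with a median of -0.05, 4 above and 10 below 0. Atp5k, the e subunit, which is involved in pairing the enzyme into dimers, had 12.7 CPM in the GFP- and 12.6 in the GFP+ poly(A) library, 55.8 and 81.2 in GFP- replicates 2 and 5, and 135 and 116 in GFP+ replicates 1 and 4. The populations were apart in the single-cell protocol and level in the poly(A) pair. Its log2 fold change was 0.58 ± 0.27 (95% interval -0.04 to 1.21, adjusted p 0.217, edgeR with Benjamini-Hochberg adjustment). The interaction with protocol was 0.89 ± 0.68 and had no call, in a test that called none of the tested genes.

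The catalytic head F1 was represented by 5 subunits, all at -0.34 to -0.05 with a median of -0.08. This grouping was also made after the values were seen. The populations overlapped in the single-cell protocol for Atp5a1, Atp5c1, Atp5d and Atp5e. In the poly(A) pair Atp5d was higher in GFP+ cells, with 133 CPM in the GFP- and 141 in the GFP+ library. Atp5b, the catalytic beta subunit, had 517 against 443 CPM in the poly(A) pair and 3319 and 4124 in GFP- against 3233 and 3212 in GFP+ libraries of the single-cell protocol. Its 3 GFP+ values were the lower ones by small margins, and the log2 fold change was -0.21 ± 0.31 (adjusted p 0.709, edgeR). Atp5a1, the alpha subunit, was at -0.08 ± 0.29. Of the genes Atp5g1, Atp5g2 and Atp5g3, which encode the same mature c subunit of the proton-driven ring, the first had 12.6 against 10.7 CPM in the poly(A) pair and 41.3 and 166 against 42.7 and 102 in the single-cell protocol (-0.42 ± 0.50), Atp5g2 was at -0.38 ± 0.37 and Atp5g3 at 0.24. Atp5c1, the gamma subunit and central shaft, had the p nearest 1 (-0.05 ± 0.34).

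The poly(A) pair gave 1 library per population, so its ratios have no replicate check and no test. Of 72 members with at least 100 counts summed over the pair, 1 differed by 1.5-fold or more, Cox7a2l with a log2 ratio of -0.99 on CPM of all counts. Among all 12250 genes with that many counts, 30.1% differed by that much (16.2% higher and 13.9% lower). The median log2 ratio was -0.07 over the 72 members and -0.07 over all genes, and the members ranged from -0.99 to 0.46.

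Of the 10 subunits counted in the poly(A) pair only, 0 passed 1.5-fold, and their median log2 ratio was 0.05. The largest ratios belonged to Ndufb7, an accessory subunit of complex I with 2323 counts in GFP- and 3157 in GFP+ cells, and to Sdhd, a membrane anchor of complex II with 112 and 152 counts. Both had a log2 ratio of 0.38, and the exact 95% interval of the ratio was 1.24 to 1.38 for Ndufb7 and 1.01 to 1.68 for the less deeply counted Sdhd, covering counting error only. The smallest were Ndufb5 of complex I, with 934 and 770 counts (-0.34, ratio interval 0.719 to 0.872), and Atp5l, the g subunit of the ATP synthase, with 982 and 922 counts (-0.15). Uqcrc1, the other core protein of complex III, had 290 and 291 CPM of all counts. Cox5a, a matrix-side subunit of complex IV, had 1158 and 1516 counts (0.33).

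**Figure D3:**
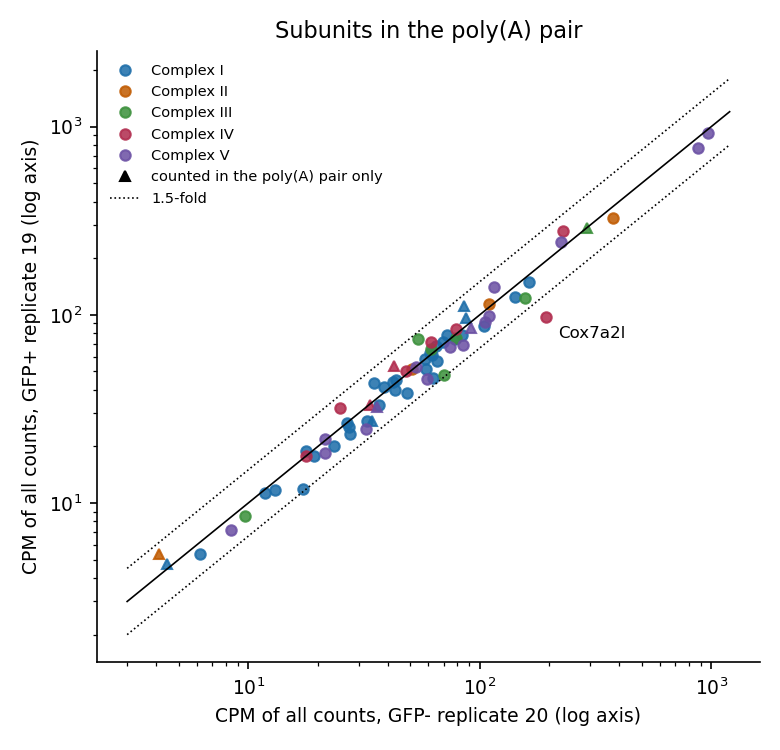
CPM of all counts in the GFP+ (vertical) against the GFP- poly(A) library (horizontal), both on logarithmic axes, for the 72 members with at least 100 counts, coloured by complex, with triangles for the 10 counted in this pair only. The solid line marks equality and the dotted lines 1.5-fold, and Cox7a2l is the single member outside them.

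Levels of different genes were compared per length in the poly(A) pair, as RPKM, which are CPM of all counts divided by gene length in kilobases. The complexes had median levels of 58.5 RPKM in GFP- and 51.2 in GFP+ cells for complex I, 72.8 and 75.1 for II, 123 and 87.2 for III, 61.4 and 77.2 for IV, and 94.7 and 82.1 for V. Such medians can rest on single genes. That of complex III was Uqcr10 in GFP- and Uqcrh in GFP+ cells, and that of complex IV was Cox5a in both. Summed CPM of all counts in GFP- and GFP+ were 1866 and 1795 for I, 543 and 497 for II, 721 and 686 for III, 732 and 721 for IV, and 2875 and 2693 for V. These medians and sums leave out subunits that the symbol rule did not match. Among them, Cox4i1 of complex IV had 11429 and 10519 counts in the GFP- and GFP+ poly(A) libraries, and Cyc1 of complex III 3719 and 3793. The values are therefore not levels of whole complexes. Cox6a1, the form of subunit VIa found outside muscle, ranked first by the mean of the pair at 431 and 524 RPKM, followed by Atp5b at 465 and 409 and Atp5a1 at 397 and 380. Cox7a2l ranked 15 of 72 with 168 and 84.8 RPKM. Sdhd was lowest at 3.202 and 4.17 RPKM. Subunits of 1 complex, which are present in fixed proportions as proteins, thus differed widely in RPKM. These values depend on the assignment of reads and on the gene length used. Ndufa11, for example, had a length of 2661 bases against 1092 exonic bases in GENCODE vM21. Whether a low value such as that of Sdhd reflects a low transcript level was not tested.

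RefSeq promoter windows (GRCm38.p6, the 250 bases before the start site) were found for 67 of the 81 members, 72 windows in all. Such promoters are known for sites of NRF1 and of GABP, an ETS factor. The NRF1 motif, GCGCA and GCGC with any 1 base between them, searched on both strands, was in 14 of the 72 windows (19.4%) against 3.74% of all 32851 windows, the ETS motif CCGGAAG in 12 (16.7%) against 6.91%, and the YY1 motif AAGATGGC in 1 (1.39%) against 1.56%. A match describes letters, not bound factors. The windows of the tested member with the largest fitted population difference and of the member with the highest level per length are shown, read 5′ to 3′ on the gene's strand, with matches to these motifs in capitals.
Cox7a2l, chr17:83514334-83514583, minus strand: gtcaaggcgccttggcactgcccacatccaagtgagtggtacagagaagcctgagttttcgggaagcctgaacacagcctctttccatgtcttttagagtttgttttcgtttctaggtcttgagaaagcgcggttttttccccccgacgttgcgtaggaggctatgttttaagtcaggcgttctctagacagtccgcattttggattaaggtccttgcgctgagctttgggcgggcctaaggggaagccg
Cox6a1, chr5:115348959-115349208, minus strand: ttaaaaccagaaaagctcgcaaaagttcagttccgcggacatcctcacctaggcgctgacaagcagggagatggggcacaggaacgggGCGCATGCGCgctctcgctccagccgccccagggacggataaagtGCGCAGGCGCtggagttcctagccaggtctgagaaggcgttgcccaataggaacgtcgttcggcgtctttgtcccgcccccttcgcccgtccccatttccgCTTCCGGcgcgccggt
The Cox6a1 window holds 2 NRF1 matches and 1 ETS match, which lies on the opposite strand and reads CTTCCGG, and the Cox7a2l window holds none of the 3 motifs.

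How far the libraries differed in these genes depended on the scaling. As a share of all counts they made up 0.674% and 0.639% in the GFP- and GFP+ poly(A) libraries, 1.61% and 1.69% in GFP- replicates 2 and 5, and 1.66% and 1.86% in GFP+ replicates 1 and 4. The 10 members on chromosomes 3, 8 and 9 had no counts in the single-cell protocol, and its totals lack nearly all genes there. Shares of the 2 protocols therefore cover different genes. The summed TMM-scaled level of the 64 tested members was 3565 and 3259 CPM in the poly(A) pair, 19054 and 32527 in GFP- replicates 2 and 5, and 23798 and 23707 in GFP+ replicates 1 and 4. The GFP+ sums of the single-cell protocol thus lay between the GFP- sums. On CPM of all counts, the sums over all 81 members were 16117 and 16875 in GFP- replicates 2 and 5 and 16587 and 18573 in GFP+ replicates 1 and 4, so that the GFP- libraries were close together and GFP+ replicate 4 was the highest. Against the protocol mean on the TMM scale, the median member was at -0.66 in GFP- replicate 2 and 0.47 in GFP- replicate 5 on the log2 scale, and at -0.07 to 0.10 in the other 4 libraries. Without GFP- replicate 2 the median fold change of the members was -0.24, and without GFP- replicate 5 it was 0.32, in each case with 0 or 1 member called.

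**Figure D4:**
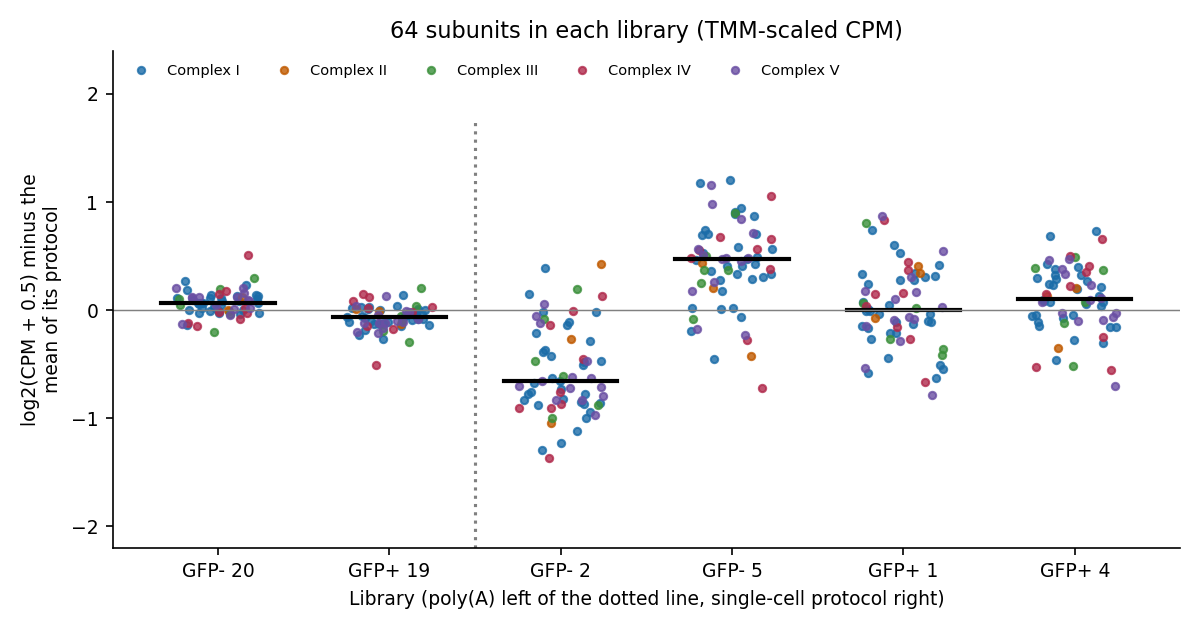
Deviation of each of the 64 tested subunits from its own mean within the protocol (log2 of TMM-scaled CPM + 0.5, vertical axis) in each of the 6 libraries, coloured by complex, with a black bar at the median. The medians of GFP- replicates 2 and 5 lie at -0.66 and 0.47, and those of the other libraries between -0.07 and 0.10.

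The size of the replicate difference was set beside that of the population difference. In the single-cell protocol, on the TMM scale, the median size of the log2 difference between replicates (5 against 2 in GFP- and 4 against 1 in GFP+, averaged) was 0.64, and that between populations 0.25, with the former larger in 53 of 64 members. Over all tested genes the medians were 0.37 and 0.36, and the former was larger in 5205 of 10523. The replicate differences of the 2 populations had the same sign in 43 of 64 members (67.2%, against 66.6% of all tested genes), with r = 0.74 across the 64 members and 0.48 across all tested genes. These are descriptions across genes that share their libraries. The labels do not match libraries of the 2 populations. The averaged replicate difference, the shared sign and the sign of r therefore depend on the order chosen here, 5 with 4 and 2 with 1. Atp5g1 (1.62), Ndufa7 (1.499) and Ndufa6 (1.45) had the highest averaged replicate differences and Atp5j (-0.93), Cox6b1 (-0.82) and Sdha (-0.78) the lowest. On CPM of all counts the replicate difference was larger in 38 of 64 members (medians 0.45 and 0.32), the sign was shared in 46 of 64 (71.9%, against 51.2% of all tested genes), and the median population difference of the members was 0.31, with 48 of 64 above 0, against 0.10 for all tested genes.

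These genes differed most between the 2 protocols, and the size of this difference depended on the scaling. Single-cell protocol levels were called higher than poly(A) levels in 62 of 64 members, against 30.5% of all tested genes, with Ndufa1 and Cox7a1 as the exceptions (edgeR, adjusted p under 0.05). Relative to the median gene, the members' protocol difference had a median of 2.999 on the log2 scale and ran from 0.86 for Cox7a1 to 4.86 for Atp5c1-ps, with Cox7a2l at 4.81. The median length of the members was 649 bases against 2557 for all tested genes. Across all tested genes the protocol difference had a correlation of -0.57 with log length, and across the 64 members of 0.06. The 2 protocols were counted in separate tables with their own gene lengths, so library protocol and counting cannot be told apart. The population effect was called different between protocols in 0 of 64 members and in 0 of 10523 genes (0%), and at an unadjusted p under 0.05 in 0 members and 24 genes (0.228%) with edgeR, with 0 members called by limma-voom too.

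Lists of neighbouring functions were read against the background of 13.5% of tested genes called, and a list of 5 to 15 genes with 0 calls is near that share. Among 5 tested genes of the chain outside the symbol rule, 0 were called and the median log2 fold change was -0.06. They include cytochrome c1 (Cyc1, -0.28 ± 0.28), the acyl carrier Ndufab1 (0.23 ± 0.35) and cytochrome c (Cycs). Cycs is a mobile carrier rather than a subunit, and it is counted again among the 13 electron carrier genes below. Assembly factors gave 0 calls among 9 for complex I (median -0.21), 9 for complexes II, III and V (-0.27) and 15 for complex IV (-0.06). Counts were also 0 of 13 for electron carriers and ubiquinone synthesis (-0.28), 0 of 9 for inner membrane carriers and scaffold (-0.30), 0 of 12 for the citrate cycle (0.01) and 0 of 65 for the mitochondrial ribosome (-0.22). Atpif1, the inhibitor of the ATP synthase, had 11.5 CPM against 18.7 in the poly(A) pair and 55.5 and 131 in GFP- against 187 and 158 in GFP+ libraries. Its GFP+ values were the higher ones in both protocols, with a log2 fold change of 0.83 ± 0.32 and an adjusted p of 0.143 (edgeR, Benjamini-Hochberg).

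Mitochondrial biogenesis was the single one of these lists with calls. Of its 13 tested genes 2 were called, which is near the 13.5% of all tested genes called in either direction. Both were lower in GFP+ cells (background 3.68%), 0 were higher (9.81%), and the median log2 fold change was -0.48. Peo1, the helicase of mitochondrial DNA, had 19.8 CPM in the GFP- and 10.5 in the GFP+ poly(A) library, 12.9 and 13.7 in GFP- replicates 2 and 5, and 6.30 and 7.61 in GFP+ replicates 1 and 4. All GFP+ libraries were lower within their protocol, and it fell by 0.92 ± 0.22 on the log2 scale (adjusted p 0.0245, edgeR). Pprc1, a coactivator related to PGC-1, had 73.9 against 42.9 CPM in the poly(A) pair and 22.3 and 24.8 against 11.1 and 14.8 in the single-cell protocol. It fell by 0.83 ± 0.22 on the log2 scale (adjusted p 0.0356, edgeR), again with no overlap. Polg2, the accessory subunit of the mitochondrial DNA polymerase, was just outside the threshold (-0.88 ± 0.25, adjusted p 0.0502, edgeR). Nrf1 (-0.08 ± 0.21), Gabpa (-0.31 ± 0.22) and Tfam (-0.44 ± 0.31), factors known to drive nuclear or mitochondrial respiratory genes, had no call. The calls of Peo1 and Pprc1 rested on several libraries: the adjusted p over single left-out libraries ran from 0.0236 to 0.262 and from 0.0331 to 0.277, and the call of both was lost without GFP- replicate 20, GFP+ replicate 19, 1 or 4, with library totals alone, with no protocol term and in the single-cell protocol alone.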

How the data were processed

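Gene-level counts were deposited by the authors in 2 tables, 1 per protocol. Subread, featureCounts, edgeR and mm9 are named per the submitters' processing notes, without versions, and the strand setting is not given in the sources used here. Deposited log2 RPKM values per library had nearly identical distributions, and were used in 1 alternative only.

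The 6 libraries were tested in 1 model with population and protocol as terms (edgeR 4.0.16 quasi-likelihood test in R 4.3.3, TMM factors of 0.519 to 2.06, filterByExpr with a minimum count of 10, 3 residual degrees of freedom), with Benjamini-Hochberg adjustment over all 10523 tested genes and a threshold of 0.05. Alternatives used DESeq2 1.42.0, limma 3.58.1, other filters and scalings, and left-out libraries. Whether libraries of 1 group came from separate animals is known only from the design text, and p-values measure the spread between them. Genes without a symbol (540) held 0.604% to 4.53% of counts and stayed in the fit.

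Members named in detail were, per complex, the 3 with the smallest p and the 1 with the p nearest 1, and in the poly(A)-only group the 2 largest and 2 smallest ratios. Atp5b, Atp5a1, Atp5g3, Cox6b1, Cox7a1, Cox5a, Uqcrc1, Atpif1 and Cyc1, Ndufab1, Nrf1, Gabpa, Tfam and Polg2 were added after their values were seen. The members and gene lists were chosen with earlier results of these data known.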

Additional observations from a re-analysis of the deposited data

How the results depend on the processing

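The count of members called higher was 0 under all 16 alternatives. The count called lower, 0 in the reported test, became 1 (Cox7a2l) with DESeq2, limma-voom, limma-trend on log2 RPKM, no filter, library totals alone and the block, and was 0 to 1 over the left-out libraries, the 1 being without GFP- replicate 2. All tested genes called numbered 1419 in the reported test, 2500 with no filter, 898 with a minimum count of 50, 139 with no protocol term, 708 in the single-cell protocol alone, 2921 with the block, and 703 to 2015 over the left-out libraries (703 without GFP+ replicate 19, 2015 without GFP- replicate 5). Higher calls were 72.7% of all calls in the reported test and 62.7% with DESeq2. Lower calls among biogenesis genes ranged from 0 to 3 over these settings and were 6 with the block.

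Several uncalled members changed sign. Ndufb3 was at -0.039 with RLE factors, -0.039 with DESeq2, -0.023 with voom, -0.14 on log2 RPKM and -0.016 with the block. Sdhc was at -0.020 with RLE and with DESeq2 and -0.032 on log2 RPKM, where Uqcrfs1 was at -0.028. Cox7c was at 0.073 with voom, 0.0087 on log2 RPKM, 0.17 with library totals and 0.043 with the block. Atp5c1 was at 0.044 without the protocol term, 0.038 in the single-cell protocol alone, 0.13 with library totals and 0.015 with the block. Over the left-out libraries the ranges were -0.26 to 0.29 for Ndufb3, -0.090 to 0.76 for Sdhb, -0.35 to 0.13 for Sdha, -0.13 to 0.17 for Sdhc, -0.16 to 0.35 for Uqcrfs1, -0.38 to 0.46 for Cox7c, -0.74 to 0.14 for Atp5g2, -0.83 to 0.35 for Atp5g1 and -0.35 to 0.29 for Atp5c1. The cause was not tested.

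The populations share no replicate number in the titles, so the labels pair no libraries. The block joined adjacent title numbers (19 with 20, 1 with 2, 4 with 5), and it and the library totals were chosen after seeing the data. With it 7 members (against 40.3% of all tested genes) had an unadjusted p under 0.05, against 1 (26.9%) in the reported test. The same count was 10 (27.7%) when GFP- replicate 2 was left out and 7 (32.8%) when GFP- replicate 5 was. The median SE of 0.34 limits which differences pass.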
